A study of Homo sapiens with 6 samples.

Results

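The unfolded protein response and the secretory machinery of antibody-secreting cells were followed through a set of 54 endoplasmic reticulum genes, among 20033 protein-coding genes of the RefSeq annotation of GRCh38.p14. The genes were picked by name for their function and not by any measured value, though earlier results of these data were known. All 54 were found in the annotation. The assay was ATAC-seq, which marks open chromatin by the insertions of the Tn5 transposase. The cells were ARP1, a human line of multiple myeloma, which is a cancer of plasma cells. The 6 libraries were 3 from cells with a KDM6A knock out and 3 from wild-type ARP1 cells, and no treatment, dose or time is given for either group. KDM6A is a demethylase of lysine 27 of histone H3, and the submitters asked how it regulates accessibility. The libraries carry biological replicate numbers in the labels, which do not name the cultures or clones or say how the knock out was made, so the spread given here is that between these libraries and may be technical. With 3 libraries against 3 the smallest two-sided exact permutation p is 0.1, so an exact test of a single value cannot pass 0.05. No such test is given, and differences are reported as values and as whether the 3 knockout values lay apart from the 3 wild-type values. The libraries are bulk, so a weaker peak in every cell and a peak present in fewer cells cannot be told apart.

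Plasma cells and the myeloma cells derived from them export large amounts of immunoglobulin, and their endoplasmic reticulum carries a heavy folding load. Misfolded protein is sensed by the membrane proteins ERN1 (IRE1), EIF2AK3 (PERK) and ATF6. ERN1 splices the messenger of XBP1, EIF2AK3 slows translation and favours that of ATF4, and ATF6 is cut in the Golgi to free a transcription factor, after which chaperones, folding enzymes, translocation subunits and degradation factors are induced. Proteasome inhibitors, a mainstay of myeloma treatment, act on the degradation end of this system.

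The labelled cell type was checked against marker genes. A peak lay within 1 kb of a gene end in all 6 lists for 6 of 8 plasma cell markers (SDC1, TNFRSF17, IRF4, XBP1, CD38 and POU2AF1), for 0 of 4 B cell, 1 of 4 T cell (CD3E), 0 of 4 myeloid and 0 of 4 epithelial markers. Over all protein-coding genes the share was 54.7%. The other plasma cell markers were PRDM1, with a peak in 1 knockout and 3 wild-type lists, and JCHAIN, with a peak in 0 knockout and 3 wild-type lists. The B cell marker PAX5 had a peak in 2 knockout and 3 wild-type lists. The T cell marker CD2 had one in 0 and 2 lists, and the epithelial marker KRT8 in 0 and 1. The lists differed in length. Knockout lists held 33055 to 37314 peaks and wild-type lists 54443 to 56048, and the weakest peak listed had a fold enrichment over background of 3.09 to 3.31 in the knockout and 2.72 to 2.92 in the wild type. The wild-type lists thus reached down to lower folds, for a cause that was not tested. Percentiles from lists of unequal length are not compared between genotypes. For such comparisons the lists were cut to a common length, the strongest 33055 peaks of each.

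Some promoters of these genes carry the sequences through which the response is known to act. The endoplasmic reticulum stress element (ERSE), read as CCAAT, 9 bases of any kind and CCACG on either strand, is bound by NF-Y at its CCAAT end and by ATF6 or XBP1 at its CCACG end. RefSeq gave a promoter of 300 bases, from 250 before the start to 50 after the start, for 48 of the 54 genes, and for SPCS1, SEC24D, KDELR2, DERL1, PDIA3 and DERL3 none was used. The ERSE was found in 6 of the 48 promoters (12.5%), in HSPA5, CALR, CANX, CRELD2, ERO1B and HSP90B1, and in 19 of all 15841 promoters (0.120%). The genes were named for this pathway, so the presence of its element is a description of the set. The stretches below hold these elements in capitals and are written 5′ to 3′ on the strand of the gene (RefSeq, GRCh38.p14). ATF6 and FKBP11 are shown beside them because no peak was listed at their gene ends in every library, and neither holds the element. The positions are chr9:125241344-125241593 (minus strand) for HSPA5, chr19:12938359-12938442 (plus) for CALR, chr5:179698773-179698801 (plus) for CANX, chr22:49918514-49918612 (plus) for CRELD2, chr1:236282143-236282208 (minus) for ERO1B, chr12:103930176-103930379 (plus) for HSP90B1, chr1:161766200-161766319 (plus) for ATF6 and chr12:48925493-48925612 (minus) for FKBP11.
HSPA5: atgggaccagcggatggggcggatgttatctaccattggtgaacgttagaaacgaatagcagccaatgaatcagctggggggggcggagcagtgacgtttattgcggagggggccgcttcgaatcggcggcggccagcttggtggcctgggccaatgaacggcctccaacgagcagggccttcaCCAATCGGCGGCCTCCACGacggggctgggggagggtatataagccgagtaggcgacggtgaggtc
CALR: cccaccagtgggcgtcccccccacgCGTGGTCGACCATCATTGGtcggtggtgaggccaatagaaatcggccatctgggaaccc
CANX: cccggCCAATCTTCACACTCCACGaagaa
CRELD2: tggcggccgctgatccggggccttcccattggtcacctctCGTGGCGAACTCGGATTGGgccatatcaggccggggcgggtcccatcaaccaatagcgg
ERO1B: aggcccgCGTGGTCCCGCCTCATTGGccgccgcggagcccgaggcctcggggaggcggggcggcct
HSP90B1: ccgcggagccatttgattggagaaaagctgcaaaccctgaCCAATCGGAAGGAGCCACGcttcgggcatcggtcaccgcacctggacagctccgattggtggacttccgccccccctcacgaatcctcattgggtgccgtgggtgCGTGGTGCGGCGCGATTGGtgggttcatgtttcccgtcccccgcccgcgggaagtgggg
ATF6: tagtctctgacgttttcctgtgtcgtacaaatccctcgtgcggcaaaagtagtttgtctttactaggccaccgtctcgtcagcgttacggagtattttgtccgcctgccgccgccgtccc
FKBP11: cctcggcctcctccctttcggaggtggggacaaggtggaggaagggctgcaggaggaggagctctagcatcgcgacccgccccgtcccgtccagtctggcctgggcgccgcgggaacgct

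The HSPA5 element ended 48 bases before the start, and its position was −66 to −48. HSP90B1 held 2 elements on opposite strands, at −194 to −176 and at −89 to −71. The related ERSE-II, read as ATTGG, 1 base of any kind and CCACG on either strand, was found in HERPUD1 (1 site), HYOU1 (2 sites) and SDF2L1 (1 site), against 12 of all promoters (0.0758%). The element known for XBP1, TGACGTGG on either strand, was found in HYOU1, where it overlaps the first ERSE-II site, and in TXNDC11 (132 of all promoters, 0.833%). The element known for ATF4, TGATGNAA on either strand, was found in HERPUD1 alone among the set (401 of all promoters, 2.53%). A match says only that these letters lie in the window.

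Nearly every gene of the set had an accessible end in both genotypes. A peak within 1 kb of either end of the gene record was listed in all 6 libraries for 52 of 54 genes (96.3%), while over all protein-coding genes the share was 54.7%. Single lists held such a peak for 52, 53 and 52 genes in knockout replicates 1 to 3 and for 53 genes in each wild-type list. None of the 53 genes with a peak in all 3 wild-type lists lacked it in all 3 knockout lists (all genes 1.75%), and none of the 52 genes with a peak in all 3 knockout lists lacked it in all 3 wild-type lists (all genes 0.0453%). Around the annotated start alone, 47 of 48 genes (97.9%) had a peak in all 6 lists, against 58.3% of all genes with such a start. These peaks were also strong. The median fold at the 52 genes was 17.15, 20.82 and 17.68 in the knockout libraries and 18.47, 21.63 and 18.54 in the wild type, where all 10950 genes with such peaks had medians of 12.34, 13.77 and 12.07 and of 14.09, 17.5 and 14.25.

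The peaks lay just upstream of the starts. In the 47 genes with a start peak in all 6 lists, the peak summit lay at a median of −116 bp from the nearest listed start, compared with −44 bp over 9231 genes, and in 40 of the 47 (85.1%) the median summit fell inside the promoter stretch of 300 bases, compared with 65.9% of all genes. The peaks were a median of 1489 bp wide in the knockout and 1888 bp in the wild type, compared with 1259 and 1551 bp over all genes. The HSPA5 summits lay at −214, −105 and −111 bp in the knockout and at −222, −159 and −177 bp in the wild type, upstream of its ERSE. The 6 genes without an annotated start could not be checked for a start shared with another gene. Of the 48 others, 8 share theirs within 1 kb: DNAJB11 (with TBCCD1), DNAJB9 (THAP5), SEC61B (ALG2), SPCS2 (XRRA1), DDIT3 (LOC128125814), DERL2 (MIS12), CRELD2 (ALG12) and SSR4 (IDH3G). The peaks at these 8 starts cannot be assigned to either gene.

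**Figure D1:**
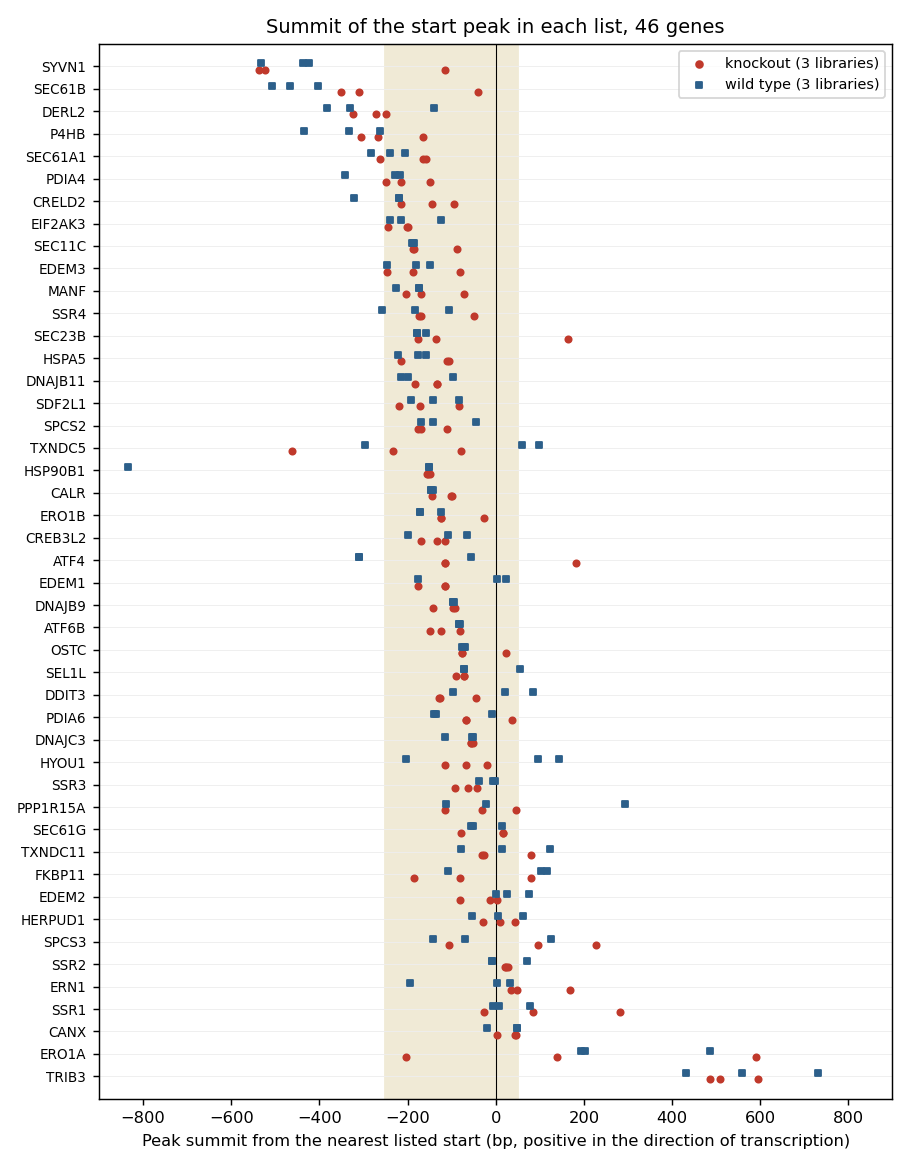
Position of the start peak's summit in each library (x axis, bp from the nearest annotated start) for 46 genes (y axis), knockout as circles and wild type as squares, with the promoter stretch from −250 to 50 bp shaded. Most summits lie between −250 and 50 bp, while those of TRIB3 lie at 431 to 732 bp, and MZB1, at a median of −2837 bp, is off the scale.

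ATF6 and FKBP11 were the exceptions among gene ends. ATF6 (chromosome 1, 161766320 to 161964070), the sensor cut in the Golgi, had a start peak in knockout replicate 2 alone, with a fold of 4.92, and in all 3 wild-type lists, with folds of 4.27, 4.13 and 6.50. Within the full lists these peaks stood at percentiles of 22.5 in the knockout and 25.7, 17.4 and 51.7 in the wild type, and with lists of equal length 1 knockout and 1 wild-type list held the peak. Without knockout replicate 2 the ATF6 end would count as present in the wild type only. FKBP11, a prolyl isomerase of the endoplasmic reticulum that is abundant in plasma cells, had no peak at either end of its record, which reaches beyond its annotated start. At that start, chromosome 12 position 48925492, a peak was listed in all 6 libraries, with folds of 5.72, 5.57 and 7.86 in the knockout and 7.69, 6.56 and 6.29 in the wild type. The FKBP11 values of the genotypes overlapped.

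Among the sensors and transcription factors, 3 of 5 ranked genes lay higher in the knockout at lists of equal length and none lower, beside 26.0% and 12.5% of all ranked gene ends. The percentile used below is the percent of peaks in the same shortened list with a lower −log10 p-value, so a value of 97 marks a peak among the top few percent. ATF4, the transcription factor made when EIF2AK3 is active (chromosome 22, 39520559 to 39522686), had percentiles of 97.5, 97.2 and 97.3 in the knockout and 84.6, 80.3 and 74.8 in the wild type. Its folds in the lists were 26.18, 28.85 and 25.25 in the knockout and 17.51, 18.71 and 14.46 in the wild type. All 3 knockout values lay above all 3 wild-type values, 97.3 ± 0.1 against 79.9 ± 4.9 (percentile, mean ± SD, n = 3), a difference of 17.4. Other gene ends of chromosome 22 also ranked higher in the knockout, with a median difference of 14.3, and ATF4 stood at the 61.9th percentile of the differences on its chromosome. When ranks were taken within each chromosome, at equal numbers of peaks per chromosome, the ATF4 groups still did not overlap and the difference was 5.4.

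ERN1, the kinase and nuclease that splices XBP1 (chromosome 17, 64039142 to 64130144), had percentiles of 88.2, 85.3 and 91.3 in the knockout and 80.2, 80.8 and 71.5 in the wild type. The knockout values lay above those of the wild type, by 10.7 on average, which is close to the median of 10.4 for chromosome 17, and within the chromosome the groups overlapped with a difference of 2.5. EIF2AK3 (chromosome 2, 88556741 to 88628145), the kinase that slows translation, had percentiles of 97.2, 96.6 and 95.5 in the knockout and 97.0, 95.1 and 97.2 in the wild type, which overlapped and differed by 0.0. ATF6B, the paralogue of ATF6 (chromosome 6, 32115264 to 32128246), had percentiles of 81.8, 93.4 and 76.4 in the knockout and 66.1, 62.4 and 75.5 in the wild type. The lowest knockout value thus stood just above the highest wild-type value, and the groups overlapped with gene-end windows of 2 kb and when ranks were taken among gene-end peaks only. CREB3L2, a related membrane-bound transcription factor, stood at 98.9 ± 0.5 in knockout and 98.7 ± 0.2 in wild-type lists (percentile, SD, n = 3), which overlapped.

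**Figure D2:**
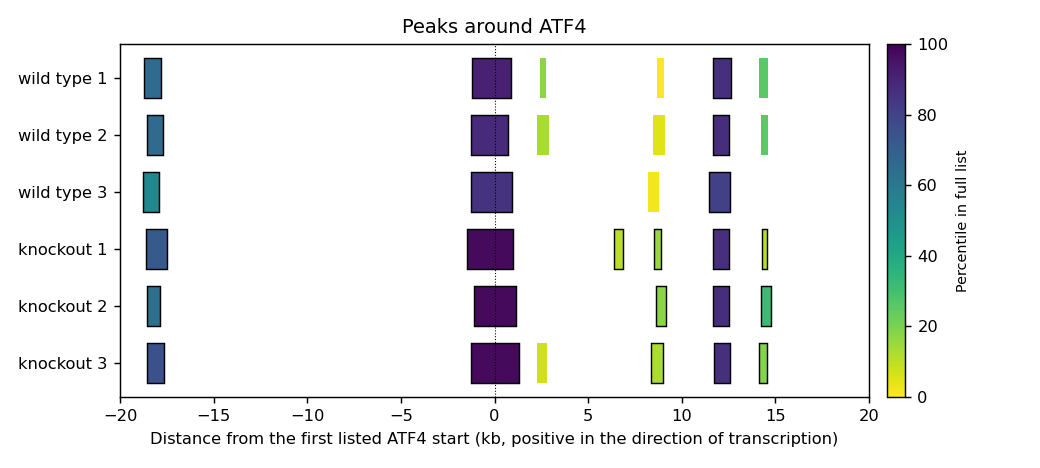
Peaks of each library around ATF4 (rows), by distance from the first listed start (x axis, kb), coloured by percentile in the full list and outlined where the peak is among the strongest 33055. The start peak is listed in all 6 libraries, and the peak about 14 kb downstream is outlined in the 3 knockout libraries only.

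Among the stress effectors, DDIT3 and PPP1R15A lay apart between genotypes. DDIT3 (CHOP), the transcription factor linked to death under prolonged stress (chromosome 12, 57516588 to 57520517), had percentiles of 95.7, 91.7 and 91.3 in the knockout and 83.8, 74.3 and 80.1 in the wild type. The knockout values were all higher, by 13.5 on average, on a chromosome whose median difference was 3.1. PPP1R15A (GADD34), the phosphatase subunit that restores translation (chromosome 19, 48872421 to 48876058), had percentiles of 72.1, 61.3 and 67.5 in the knockout and 59.3, 50.2 and 29.1 in the wild type, with every knockout value above every wild-type value. In wild-type replicates 1 and 2 and knockout replicate 2 the strongest peak lay away from the start. At the PPP1R15A start the percentiles were 72.1, 59.2 and 67.5 in the knockout and 8.1, 23.0 and 29.1 in the wild type, which differed by 46.2 in place of 20.7. Without wild-type replicate 3 the PPP1R15A gene-end difference was 12.2. Within chromosome 19, however, the gene-end groups of PPP1R15A overlapped and the difference was 1.4. TRIB3, a pseudokinase induced by DDIT3, overlapped between genotypes at 52.1 ± 7.6 and 43.8 ± 13.3 (percentile, SD, n = 3).

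Of 12 chaperones and related folding factors ranked, 4 lay higher in the knockout, none lay lower and 8 overlapped, beside 26.0% higher and 12.5% lower among all gene ends. HSPA5 (BiP), the main chaperone of the lumen and the gene from which the ERSE is best known (chromosome 9, 125234853 to 125241343), had percentiles of 94.8, 95.4 and 93.1 in the knockout and 88.4, 88.9 and 89.4 in the wild type. The HSPA5 groups did not overlap, at 94.4 ± 1.2 and 88.9 ± 0.5 (SD, n = 3), though its folds, 21.37, 24.91 and 19.08 against 19.65, 24.06 and 20.75, did. HSP90B1 (GRP94), the chaperone of the same compartment with 2 ERSEs, had percentiles of 96.2, 94.7 and 93.4 in the knockout and 95.9, 87.0 and 90.2 in the wild type, which overlapped. CALR, the calcium-binding lectin chaperone (chromosome 19), had 94.8, 98.2 and 95.3 against 74.1, 80.8 and 89.7. The CALR groups lay apart by 14.6 on average, next to a chromosome median of 11.3, and overlapped within the chromosome. Its partner CANX overlapped, with folds at its annotated starts of 24.98, 27.86 and 20.77 in the knockout and 27.76, 35.0 and 22.84 in the wild type. SDF2L1 and CRELD2, both on chromosome 22 and both induced in the response, ranked higher by 12.6 and 10.4, which is below the chromosome median of 14.3. HYOU1, DNAJB9, DNAJB11, DNAJC3, MANF, CANX, HSP90B1 and MZB1 made up the overlapping 8.

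MZB1, a plasma cell cochaperone of antibody assembly (chromosome 5, 139387467 to 139389913), had a different peak shape. The peak that reached within 1 kb of its start was 5655 bp wide on average in the knockout and 6852 bp in the wild type. The widths were 6021, 4098 and 6845 bp in the knockout and 6786, 6836 and 6934 bp in the wild type, and overlapped. The summit of that peak lay at −2793 to −3143 bp from the start. The MZB1 percentiles were 85.0, 86.5 and 93.6 in the knockout and 90.6, 92.9 and 85.3 in the wild type, and overlapped.

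Disulphide enzymes spanned the range of the set. PDIA4 (ERp72), a multidomain disulphide isomerase, had the highest mean percentile of the set in the full lists and, at equal length, 99.5, 99.3 and 98.9 in the knockout and 99.1, 99.1 and 99.3 in the wild type. DNAJC3, an HSPA5 cochaperone, and CREB3L2 came next, and for both the groups overlapped. The DNAJC3 percentiles were 98.8, 98.6 and 99.0 in the knockout and 98.5, 99.3 and 99.0 in the wild type, and those of CREB3L2 were 99.2, 99.2 and 98.3 and 98.8, 98.6 and 98.5. At the low end stood TXNDC5 (ERp46), a thioredoxin-domain isomerase abundant in plasma cells, with 47.7, 23.0 and 39.9 in the knockout and 50.9, 41.7 and 60.9 in the wild type. The TXNDC5 difference of −14.3 was the most negative of the set and stood at the 3.9th percentile of chromosome 6, but its groups overlapped. EDEM2, a mannosidase-like degradation factor, was also low, with 50.6, 40.1 and 58.8 in the knockout and 33.3, 33.6 and 39.9 in the wild type. The EDEM2 groups barely lay apart, and within chromosome 20 the difference turned to −2.7 and the groups overlapped.

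TXNDC11, an isomerase-like partner of the EDEM proteins (chromosome 16, 11679083 to 11742857), had percentiles of 96.7, 97.4 and 95.9 in the knockout and 75.6, 82.3 and 83.6 in the wild type. Its knockout values were all higher, by 16.1 on average against a chromosome median of 9.7, and also lay apart within the chromosome, by 10.3. ERO1B, the oxidase that recharges the isomerases (chromosome 1, 236215101 to 236281958), moved the other way, with folds of 22.87, 28.85 and 24.97 in the knockout and 39.51, 52.98 and 42.75 in the wild type. Its percentiles were 95.8, 97.2 and 97.1 in the knockout and 98.8, 99.2 and 99.0 in the wild type, and the groups did not overlap. P4HB, PDIA3 and ERO1A overlapped.

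PDIA6, a further isomerase, had the lowest mean percentile over the full lists among the 52 genes with a gene-end peak in all 6, and its record reaches beyond its annotated starts. Its folds at the record's ends were 4.82, 4.92 and 4.21 in the knockout and 18.58, 4.86 and 3.98 in the wild type, where the high value came from a single peak of 10789 bp. At its annotated starts inside the record, the PDIA6 folds were 56.58, 71.79 and 52.47 in the knockout and 45.49, 66.35 and 61.82 in the wild type. PDIA6 was thus among the most accessible starts of the set in all 6 libraries. It lies in a stretch of chromosome 2, from 9 to 14 Mb, with 921 to 1017 peaks in knockout and 1137 to 1174 in wild-type lists.

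Among degradation factors, which return misfolded protein to the cytosol, genes were found in both directions: of 9 genes, 5 ranked higher in the knockout (HERPUD1, DERL2, DERL3, EDEM1 and EDEM2), 2 lower (EDEM3 and DERL1) and 2 overlapped (SEL1L and the ligase SYVN1), beside 26.0% higher and 12.5% lower among all gene ends. HERPUD1, DERL2 and EDEM2 lie on chromosomes 16, 17 and 20, where 53.7%, 47.3% and 45.8% of all gene ends ranked higher, and the 3 genes overlapped when ranked within the chromosome. EDEM1, a mannosidase-like factor on chromosome 3, had percentiles of 98.4, 99.0 and 98.4 in the knockout and 97.7, 97.2 and 95.7 in the wild type. Its paralogue EDEM3, on chromosome 1, had 97.8, 97.6 and 97.5 in the knockout and 98.7, 99.4 and 98.6 in the wild type. The EDEM groups thus lay apart in opposite directions, by 1.7 and −1.3, near the top of every list, and the EDEM1 difference was 1.1 without wild-type replicate 3. The derlins, membrane proteins of the export channel, did the same. DERL3, the form known from secretory cells, had 99.3, 98.6 and 98.7 in the knockout and 91.7, 92.6 and 90.8 in the wild type, and DERL1 had 96.2, 93.7 and 96.2 and 98.0, 98.1 and 98.6. DERL3 lies on chromosome 22, where its difference of 7.2 stood at only the 12.1th percentile of the chromosome.

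Of 12 genes of translocation and signal peptide removal, 2 ranked lower in the knockout, none higher and 10 overlapped, beside 12.5% lower and 26.0% higher among all gene ends. None of the 12 lies on chromosomes 16, 17 or 19 to 22, a group formed after the values were seen. On the other chromosomes 17.6% of all gene ends ranked higher. The median difference of the 12 was −1.0. SEC61B, a subunit of the translocation channel (chromosome 9, 99222282 to 99230615), had percentiles of 67.5, 78.9 and 79.4 in the knockout and 85.9, 84.4 and 81.2 in the wild type. The difference of −8.6, which was −4.3 without knockout replicate 1, stood at the 9.7th percentile of chromosome 9, and the start is the one shared with ALG2. SSR3, of the translocon-associated complex, ranked lower with a difference of −3.2 (−2.1 without knockout replicate 1), while SSR1, SSR2 and SSR4 of the same complex overlapped. SEC61A1 and SEC61G, the other channel subunits, also overlapped, as did the signal peptidase genes SEC11C, SPCS1, SPCS2 and SPCS3 and the oligosaccharyltransferase subunit OSTC. In vesicle traffic, SEC23B ranked higher (10.1) and SEC24D lower (−4.5), both coat subunits of vesicles leaving the reticulum, and the retrieval receptor KDELR2 overlapped. The SEC23B difference was below the chromosome 20 median of 13.2. Within their chromosomes SEC23B and SEC24D overlapped between genotypes, with differences of 0.6 and −0.5.

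**Figure D3:**
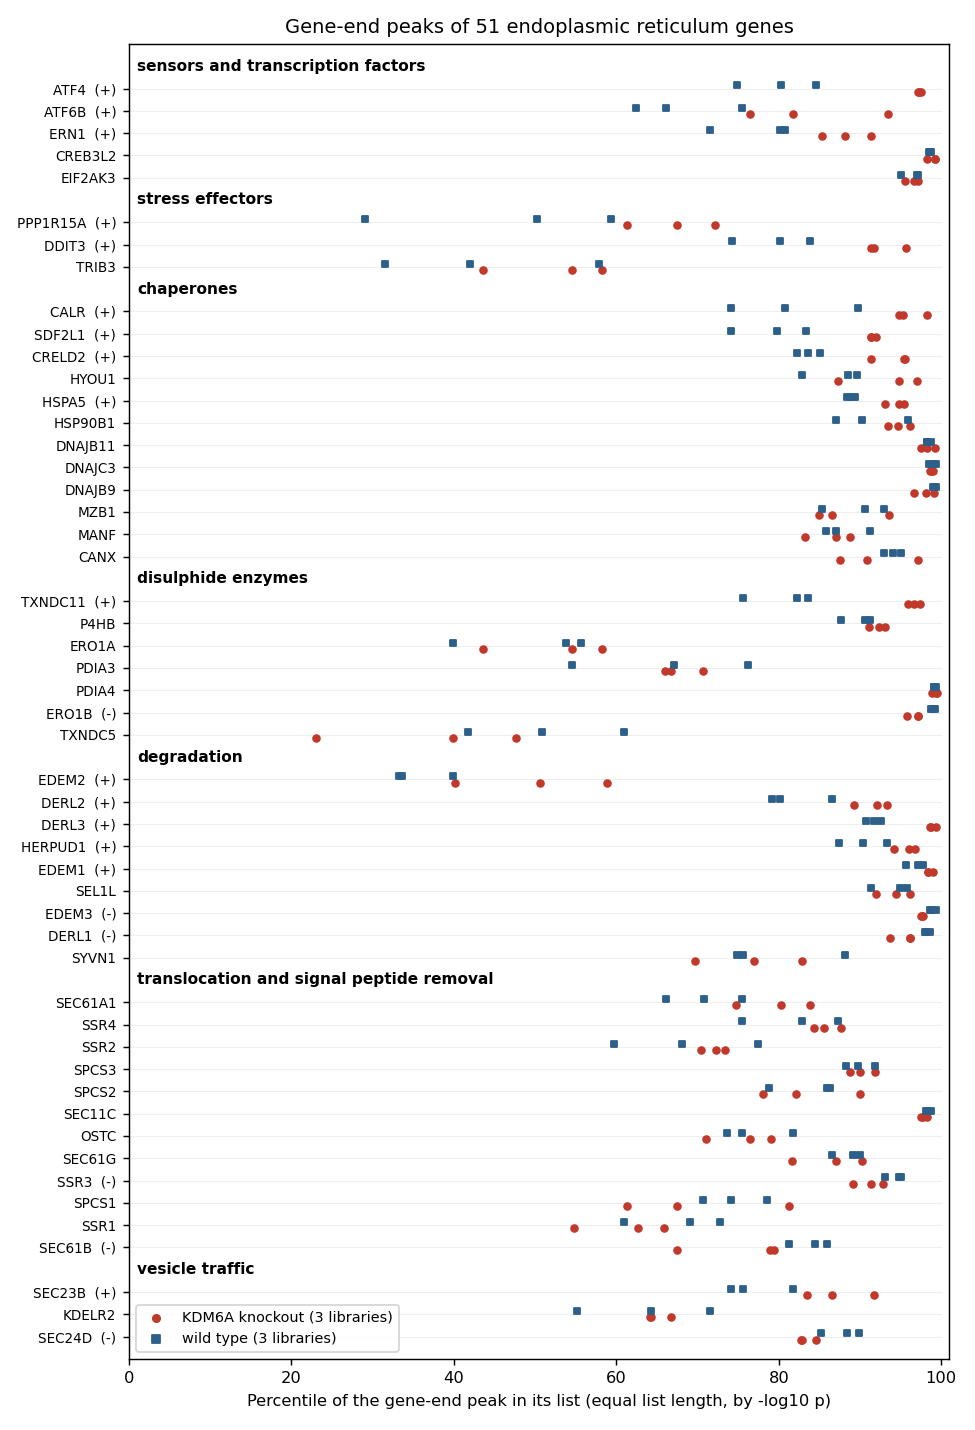
Percentile of the gene-end peak in its list (x axis, lists of equal length) for 51 genes ordered by role (y axis), knockout as circles and wild type as squares, with + or - after the 16 and 6 genes whose knockout values all lie above or below the wild type. ATF4 and TXNDC11 show wide gaps between groups, and PDIA4 sits near 99 in all 6 libraries.

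A gene-end peak in all 6 shortened lists was found for 51 genes of the set, and 16 of them (31.4%) ranked higher in the knockout while 6 (11.8%) ranked lower. Over all 10407 such gene ends the shares were 26.0% and 12.5%, so the shares of the set were near the background. The median difference was 1.4 for the set and 1.9 for all genes. The median difference by role went from 13.5 for the 3 stress effectors and 10.7 for 5 sensors and transcription factors to −1.0 for translocation, without a test. The roles differ in the chromosomes their genes lie on. With ranks taken within each chromosome, the differences were 12.6 for DDIT3, 1.4 for PPP1R15A and −8.6 for TRIB3. Those of the sensors and transcription factors then ran from −0.1 (EIF2AK3) to 22.1 (ATF6B). Those of translocation ran from −9.6 (SEC61B) to 10.4 (SEC61A1). Of the pathway's other genes, 64 picked by function, 57 (89.1%) were called at a gene end in all 6 lists, none was found in one genotype only, and of 56 ranked 12 (21.4%) were higher and 9 (16.1%) lower. XBP1, the target of ERN1 (chromosome 22), overlapped between genotypes, at mean percentiles of 84.7 in knockout and 74.7 in wild-type lists. ATF3, SRPRB, SURF4, CREB3L1 and KDELR1 lacked a gene-end peak in every list. No value at their annotated starts is given, so a start peak inside the record, as at FKBP11, may have been missed.

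The shares ranked higher or lower differed between chromosomes. On chromosomes 16, 17, 19, 20, 21 and 22, a group formed after the values were seen, 12 of 14 genes of the set (85.7%) ranked higher in the knockout and none lower, beside 56.9% and 2.02% of all gene ends there. On the other chromosomes 4 of 37 (10.8%) ranked higher and 6 (16.2%) lower, beside 17.6% and 15.4% of all gene ends. The 4 were ATF6B, HSPA5, DDIT3 and EDEM1. As the group of chromosomes was chosen with these values known, its high share is a description and not a test. Chromosome 14, where 36.1% of gene ends ranked higher and 0.958% lower, was left among the others. Knockout lists held 107.2% of the wild-type number of peaks on chromosome 22 and 93.3% on chromosome 19, but 45.8% on chromosome 4. Over all gene ends the shares also differed with promoter GC content, in 5 equal classes. From the lowest to the highest class, the share ranked higher went from 18.1% to 34.3% and the share ranked lower from 17.9% to 5.83%. The set showed no such steady rise: 4 of 9, 4 of 8, 1 of 10, 3 of 10 and 3 of 8 genes ranked higher. In the same classes 1, 0, 2, 1 and 0 genes of the set ranked lower. Promoters of the set had a median GC content of 65.5%, next to 62.7% over all genes. Those that ranked higher had 63.3% (15 with a sequence), those that ranked lower 65.7% (4) and those that overlapped 66.5% (26). The part of chromosome, GC content or library depth in these ranks was not tested.

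**Figure D4:**
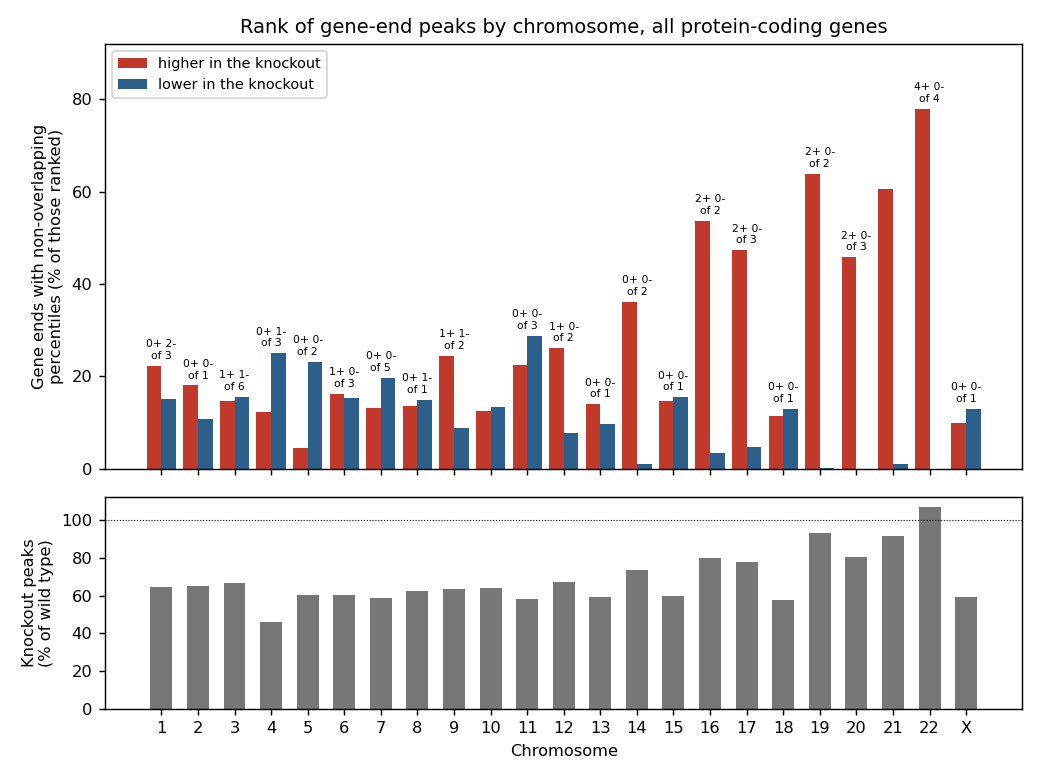
Top, the percent of ranked gene ends of all protein-coding genes whose knockout percentiles all lie above (left bar) or below (right bar) the wild type, by chromosome, with the counts for the set written above. Bottom, knockout peaks as a percent of wild-type peaks, where chromosome 22 stands at 107.2% and chromosome 4 at 45.8%.

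Ranks taken within each chromosome changed which genes lay apart. With equal numbers of peaks per chromosome, 11 of 51 genes of the set (21.6%) ranked higher and 4 (7.84%) lower, beside 19.9% and 11.7% of all gene ends. Of the 16 genes that ranked higher over the whole genome, 7 kept their call (ATF4, ATF6B, DDIT3, DERL3, EDEM1, HSPA5 and TXNDC11), and CREB3L2, HYOU1, SEC61A1 and SPCS3 joined them. Of the 6 lower genes, DERL1, EDEM3, ERO1B and SEC61B kept theirs. Ranks among gene-end peaks only gave 12 higher (23.5%) and 7 lower (13.7%), beside 19.4% and 18.0%. Both of these rankings were added after the values were seen. Only ATF4, DDIT3, DERL1, DERL3, EDEM1, EDEM3, ERO1B, HSPA5, SEC61B and TXNDC11 lay apart under every ranking and window run for them.

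**Figure D5:**
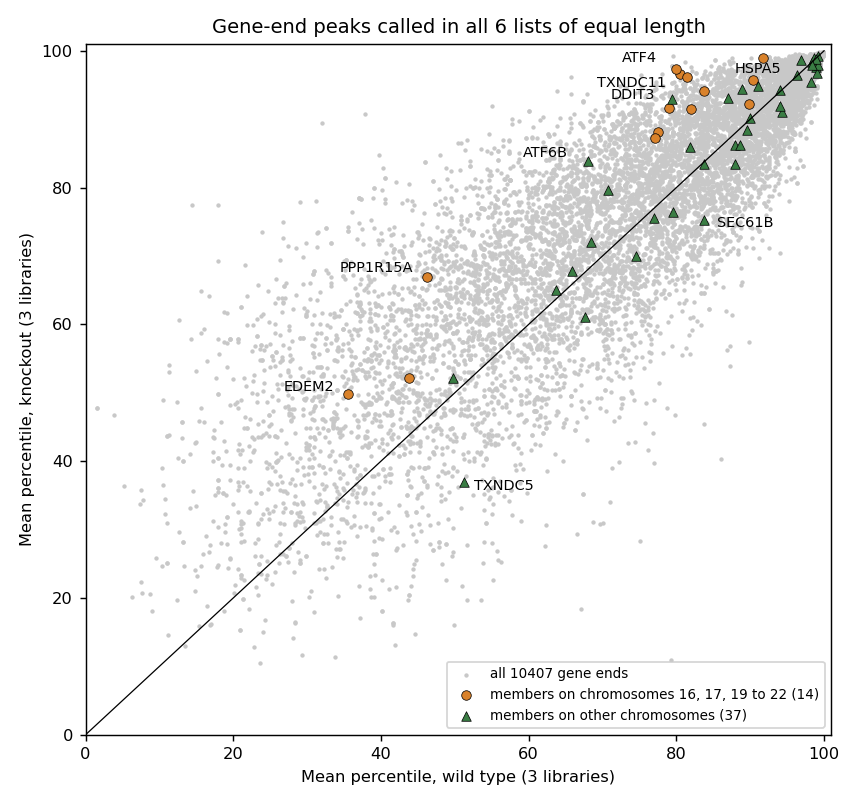
Mean percentile of the gene-end peak in the knockout (y axis) against the wild type (x axis), 3 libraries each, for 10407 gene ends (grey) and 51 genes of the set, as circles on chromosomes 16, 17 and 19 to 22 (14) and triangles elsewhere (37). All 14 circles, on chromosomes grouped after the values were seen, lie above the diagonal. Triangles lie on both sides, with TXNDC5 and SEC61B below it.

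Away from gene ends, some sites near these genes were absent from the knockout lists. Distal regions are merged peaks within 50 kb of a gene record that touch no window at an end of any protein-coding gene. The full lists gave 237 such regions near the set, of which 111 were listed in all 3 wild-type and 61 in all 3 knockout libraries. Of the 111, 16 (14.4%) were absent from every knockout list, beside 22.2% near all genes, and none of the 61 was absent from every wild-type list, beside 0.584%. Promoter regions, those at the genes' own ends, held no such case: 58 were listed in all 3 wild-type libraries and none was absent from the knockout (all genes 2.64%), nor was any of 58 in the knockout absent from the wild type (all genes 0.0409%). The 16 regions were weak in the wild type, with a median fold of 5.5 (3.53 to 6.99), compared with 10.89 for 55 distal regions listed in all 6 libraries. Near all genes the same medians were close to these, at 5.25 and 10.58. Of the 237 regions, 10 lay within 1 kb of an annotated start inside a gene record, among them the start peaks of PDIA6, CANX and FKBP11. Without these, 46 regions listed in all 6 libraries had a median fold of 10, and 16 of 102 regions (15.7%) were in the wild type only, beside 23.2% near all genes. They lay near ATF6, CREB3L2, DERL1, EDEM1, EDEM3, EIF2AK3, ERN1, ERO1B, PDIA3, SPCS3, SSR3 and TXNDC5. No distal region at all was listed near 12 genes, among them HSPA5, DDIT3, MANF, P4HB and SYVN1.

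With lists of equal length fewer regions were found in the wild type only, and some in the knockout only. Of 60 distal regions in all 3 wild-type lists 5 (8.33%) had no peak in any knockout list, beside 9.77% near all genes, and of 56 in all 3 knockout lists 6 (10.7%) were absent from the wild type, beside 4.82%. The knockout-only number moved with the settings: it was 2 of 46 with a −log10 q-value of at least 5 (all genes 4.60%), 10 of 73 without knockout replicate 1 (all genes 6.77%) and 10 of 65 without knockout replicate 3 (all genes 6.97%). The wild-type-only number was 3 of 48 with that q-value (all genes 8.19%), 8 of 64 without knockout replicate 1 (all genes 13.8%) and 9 of 68 without wild-type replicate 2 (all genes 13.1%). Away from annotated starts, 5 of 51 regions were wild-type-only (all genes 10.5%) and 6 of 47 knockout-only (all genes 5.05%). Of the 57 promoter regions in all 3 lists of either genotype none was found in one genotype only (all genes 0.728% for the wild type and 1.25% for the knockout). Each of the 5 distal regions was absent from the full knockout lists too. The strongest lay upstream of ERO1B at chr1:236284261-236285402, centred at −2873 bp from the start whose peak also ranked lower in the knockout, with wild-type folds of 6.83, 6.81 and 7.33. The next lay upstream of TXNDC5 at chr6:7916682-7917927, centred at −6516 bp, with wild-type folds of 6.41, 8.02 and 6.50. A region inside PDIA3, a disulphide isomerase that works with CALR and CANX, at chr15:43749709-43750210 had folds of 6.41, 7.29 and 6.71. A region inside CREB3L2 at chr7:137895311-137896106 had 5.34, 6.08 and 5.87, and a region near SSR3 at chr3:156489288-156490182 had 6.41, 6.08 and 5.45. These folds were all above the lowest knockout fold listed, 3.31 at most, but folds describe peaks within a list and read depth is unknown. Whether list length or depth left these regions out of the knockout lists was not tested.

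Of the 6 regions found in the shortened knockout lists only, 3 lay near PDIA6, in its peak-dense stretch. These were chr2:10772733-10774720, with knockout folds of 5.72, 4.92 and 5.33 and wild-type folds of 3.20, 4.13 and 4.19, chr2:10823104-10824870, with 5.12, 4.59 and 4.77 and a single wild-type fold of 4.06, and chr2:10885358-10886613, with 3.31, 5.57 and 4.21 and 4.06, 3.16 and 4.61. Near ATF4, the region chr22:39534698-39535316 had folds of 4.21, 5.57 and 4.21 in the knockout and 4.27 and 4.62 in wild-type replicates 1 and 2. Near CALR, chr19:12983499-12984116 had folds of 6.62, 5.25 and 4.21 in the knockout and 4.19 in wild-type replicate 3. Near SEC61G, chr7:54704982-54705908 had folds of 3.31, 5.25 and 5.33 and of 3.84, 3.89 and 3.77. All 6 were present in 1 or more full wild-type lists, so none was called in the knockout only there.

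At ends of neighbouring genes within 50 kb, 3 further regions were in the shortened knockout lists only. Near ATF4, chr22:39528907-39529696 had knockout folds of 4.51, 4.59 and 3.93 and wild-type folds of 2.78, 3.40 and 2.93. Near SEL1L, chr14:81435841-81436600 had folds of 3.91, 5.25 and 5.05 and of 4.06, 4.62 and 4.40. Near TXNDC11, chr16:11667786-11668453 had folds of 8.73, 5.57 and 5.89 in the knockout and 3.35 in wild-type replicate 3. In the full lists none of 85 neighbouring gene-end regions was found in one genotype only.

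Distal regions listed in all 6 shortened lists were ranked like gene ends. Of 42 near the set, 7 (16.7%) ranked higher in the knockout and 7 (16.7%) lower, beside 12.1% and 19.8% near all genes. Of 57 promoter regions 16 (28.1%) ranked higher and 6 (10.5%) lower, beside 25.2% and 12.8%. Together 23 of 99 regions ranked higher (all genes 19.1%) and 13 lower (all genes 16.1%).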

How the data were processed

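Peaks were listed separately for each of the 6 libraries (3 per genotype, grouped by title). Per the labels' protocols, libraries were size selected and read as pairs of 150 bp. Trimmomatic, FastQC, MultiQC, Bowtie2, MACS2 2.1.2 and the build GRCh38 are named in the submitters' processing notes. The sources used here do not give their settings, any shift for the Tn5 offset or any removal of duplicates. The deposited score, the fold (a ratio over background), the −log10 p-value and the −log10 q-value of each peak are the authors' own. Folds describe peaks within a list, and read depth is unknown. The mitochondrial peak, 1 per list, was left out.

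Analyses used Python 3.11.15, pandas 2.3.3 and numpy 2.4.6, with figures from matplotlib 3.10.9. A gene end was called where a peak overlapped 1 kb on either side of an end of the gene record, and the peak with the highest −log10 p-value was used. Peaks sharing 1 bp were merged into 75701 regions, and regions within 50 kb of a gene record were assigned to it. Percentiles are the percent of a list's peaks with a lower −log10 p-value, with ties split evenly. Counts over the genes were read against the same counts over all protein-coding genes, with no test. Every gene was accounted for by role. Values per library were printed for the sensors, ATF4, HSPA5, HSP90B1, MZB1, genes without a peak in every list, the 3 highest and 3 lowest genes and one-genotype regions, and other values were added after they were seen. Code for calls and ranks was checked and tested on simulated data. The genes and lists were chosen with earlier results of these data known. Alternatives were equal list length, each library left out, a −log10 q-value cut at 5, windows of 500 bp and 2 kb, annotated starts, 10 and 100 kb, summits, a rule of 2 of 3 lists and percentiles by fold. Added after seeing the data were ranks within chromosomes, ranks among gene-end peaks, 50 kb from either gene end only, distal regions without those within 1 kb of an annotated start, and the genes named with each library left out.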

Additional observations from a re-analysis of the deposited data

How the results depend on the processing

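The number of genes with a peak in every list stayed at 52 when any library was left out. Without knockout replicate 2 the wild-type-only gene ends and promoter regions numbered 1 each (ATF6), a range of 0 to 1, and knockout-only ends stayed at 0. Leaving out a library loosens a call that needs 3 of 3 lists, so these counts mostly grow. In the full lists wild-type-only distal regions ranged from 21 to 25 (25 without wild-type replicate 1) in place of 16, and knockout-only ones from 0 to 2 (1 without wild-type replicate 1, 2 without wild-type replicate 3). At equal list length wild-type-only distal regions ranged from 5 to 9 (8 without knockout replicate 1, 9 without wild-type replicate 2) and knockout-only ones from 6 to 10 (10 without knockout replicate 1 or 3). Regions lower by rank ranged from 16 to 21 (20 without knockout replicate 1 or 2, 21 without wild-type replicate 3) in place of 13, and those higher from 25 to 31 in place of 23. Gene ends ranked lower numbered 7 to 8 and higher 16 to 19. With a −log10 q-value of at least 5 the equal-length counts were 3 wild-type-only and 2 knockout-only distal regions. Equal list length itself gave 5 and 6 in place of 16 and 0. A gene-end window of 2 kb gave 1 wild-type-only promoter region. Within 10 kb, 2 knockout-only regions were found and 8 regions ranked lower. Within 100 kb, 25 regions were wild-type-only in the full lists and 11 knockout-only at equal length. A rule of at least 2 of 3 lists gave 39 wild-type-only regions in the full lists, and 10 wild-type-only and 15 knockout-only at equal length. Leaving out distal regions within 1 kb of an annotated start changed none of the 4 distal counts and gave 12 regions lower and 21 higher by rank. Equal length per chromosome gave 3 wild-type-only regions and turned the EDEM2 difference to −2.7. The cause of these shifts was not tested. The summit rule was run for gene ends only. No paired analysis was possible because the counts of calls come from no test, and the replicate numbers are not said to mark a shared culture or day. List length limits what can be seen: a weak site could be missed in a knockout library and listed in a wild-type one. The lowest knockout folds, 3.09 to 3.31, are those of listed peaks and set no bound on the strength of missed sites.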
